A study of Rattus norvegicus with 9 samples.

Results

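Mature miR-210-3p, miR-132-3p and miR-21-5p, microRNAs known for their responses to hypoxia, to neuronal activity and to injury, were followed through a table of small RNAs from the CA1 field of the rat hippocampus. Members were found by sequence: a table entry counted where it shared an exact run of 16 or more bases, on the same strand, with the mature rat sequence of one of these 3 microRNAs. The rule found 15 of the 5794 entries, 3 for miR-210-3p, 4 for miR-132-3p and 8 for miR-21-5p. It used no measured value.

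The libraries were prepared for piRNAs, and total RNA of CA1 was carried through adaptor ligation, amplification and selection of amplicons by size before sequencing. All rats were adult male Wistar animals of 7 to 8 weeks. There were 3 groups of 3 libraries: HPC0h, hour 0 of a treatment that the labels call HPC and do not spell out, tGCI26h, hour 26 of transient global cerebral ischemia, and Sham. Whether the HPC0h rats also had ischemia is not given in the sources used here. The table's column headings were shorter than the sample titles, and P0 was read as HPC0h, R26 or Re26 as tGCI26h, and S or Sham as Sham. Each of 7 headings carries 3 numbers, whose meaning (such as pooled animals) the labels do not give, and the other 2 headings, 1 for tGCI26h and 1 for Sham, carry none. Libraries are called a, b and c here, with u for the unnumbered ones. Nothing says that the libraries of a group came from separate animals, so p-values measure only the spread between these libraries.

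The u libraries stood apart from the rest. Normalised tags summed to between 961372 and 992081 in each of the 9 libraries, but entries above 0 numbered 708 in tGCI26h u and 1201 in Sham u, against 2558 to 2936 in the 7 numbered libraries. Matches to mature rat microRNAs took 45.5% of the tags of tGCI26h u, 81.2% of those of Sham u and 84.2 to 86.5% of those of the numbered libraries. The u columns hold blanks and no cell listed as 0, and blanks were counted as 0. Differences between groups are therefore given with all 9 libraries and with the 7 numbered ones, HPC0h a, b and c, tGCI26h a and b, and Sham a and b. Because the values are normalised and rounded, the depth behind them is unknown. Values above 0 had a median of 248 tags in tGCI26h u and 45 tags in Sham u, against 5 to 6 tags in the numbered libraries. A blank in a u library therefore cannot be told apart from a low level.

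A mature microRNA guides Argonaute to messenger RNAs that pair with its seed, bases 2 to 8, and so lowers their stability and translation. miR-210 is transcribed under hypoxia-inducible factors in many cell types and is known for targeting the iron-sulphur cluster scaffold ISCU, which ties it to mitochondrial metabolism. miR-132 is made with miR-212 from a cluster induced by CREB in active neurons, and is known for promoting dendrite growth through p250GAP. miR-21 targets PDCD4, restrains apoptosis, and is known for its induction in reactive glia and in injured tissue.

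The 3 mature sequences are shown because membership rests on them. They are RefSeq's on GRCr8, 5′ to 3′, each 22 bases long, with the seed in capitals.
miR-210-3p: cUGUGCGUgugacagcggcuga
miR-132-3p: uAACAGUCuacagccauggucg
miR-21-5p: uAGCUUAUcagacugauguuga
miR-210-3p lies in the Mir210 gene (gene ID 100314053) at chr1:205755946-205755967 on the minus strand. miR-132-3p lies in Mir132 (gene ID 100314029) at chr10:60522091-60522112 on the plus strand. miR-21-5p lies in Mir21 (gene ID 100314000) at chr10:71902653-71902674 on the minus strand. All 3 are mature arms within microRNA hairpins and not coding sequence. The seeds of miR-210-3p and miR-21-5p occurred in no other mature rat sequence of the reference table, and the seed of miR-132-3p occurred in miR-212-3p alone.

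The hairpins show which arm was sequenced, with the mature member in capitals. In miR-210 and miR-132 the member is the 3′ arm, and in miR-21 it is the 5′ arm.
Mir210 hairpin: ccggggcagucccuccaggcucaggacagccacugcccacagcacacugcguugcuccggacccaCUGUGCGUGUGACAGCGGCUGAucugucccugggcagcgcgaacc
Mir132 hairpin: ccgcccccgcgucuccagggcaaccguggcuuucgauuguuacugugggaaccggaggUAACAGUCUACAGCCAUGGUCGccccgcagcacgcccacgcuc
Mir21 hairpin: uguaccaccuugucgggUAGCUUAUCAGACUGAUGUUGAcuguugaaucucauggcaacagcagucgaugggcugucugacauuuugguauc

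None of the 15 entries was the full mature sequence of 22 bases. For each of the 3 microRNAs the most abundant entry was the form of 21 bases, which starts at mature base 1 and lacks the last base. These lead forms carry nearly all of the tags described below, again with the seed in capitals.
lead form of miR-210-3p: cUGUGCGUgugacagcggcug
lead form of miR-132-3p: uAACAGUCuacagccaugguc
lead form of miR-21-5p: uAGCUUAUcagacugauguug
A last base missing from the lead form was common in the table. Among the 236 mature rat sequences with a summed mean of at least 1 tag, the lead form ended 1 base short of the mature end for 51, 2 bases short for 57, 3 bases short for 42 and at the mature end for 42. Of all 692 distinct mature rat sequences in the reference table, 59 were listed in full.

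In all 7 numbered libraries miR-21-5p was the most abundant of the 3 microRNAs, miR-132-3p the next and miR-210-3p the lowest. The ratio of miR-21-5p to miR-132-3p ran from 2.58 to 4.11 across these libraries, and that of miR-132-3p to miR-210-3p from 23.2 to 39.4. Among the 320 microRNA sums with any match in the table, miR-21-5p ranked 34, miR-132-3p 57 and miR-210-3p 150 by mean over the 9 libraries. Levels of different sequences also carry ligation and amplification differences, which normalised tags do not remove. Because CA1 is a mixed tissue, a lower tag count from fewer cells of a type and from less of the RNA per cell cannot be told apart.

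miR-210-3p, the hypoxia microRNA, had its highest values in HPC0h. Its summed value was 41, 43 and 39 tags in HPC0h a, b and c. In tGCI26h a and b it was 18 and 32 tags, and the cell of tGCI26h u was blank. In Sham a and b it was 21 and 26 tags, and the cell of Sham u was blank as well. With the blanks as 0, all 3 HPC0h libraries stood above every tGCI26h and every Sham library, and tGCI26h and Sham overlapped. Means over all libraries were 41.0 ± 2.0 tags in HPC0h, 16.7 ± 16.04 tags in tGCI26h and 15.7 ± 13.8 tags in Sham (SD, n = 3 each, blanks as 0). Over the numbered libraries they were 41.0 tags in HPC0h, 25.0 tags in tGCI26h and 23.5 tags in Sham.

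The miR-210-3p difference between HPC0h and Sham did not pass the test across all microRNAs. With all 9 libraries the log2 difference was 2.32 ± 1.72 (SE, limma, adjusted p = 1.0). That value rests on the blank of Sham u: among the 7 numbered libraries the log2 difference was 0.78 ± 0.25 (SE; 95% interval 0.13 to 1.44; limma, adjusted p = 0.534). No other of the 200 microRNA sums tested in the numbered libraries had a higher value in this comparison, and 1 of 222 did with all 9. HPC0h against tGCI26h gave 0.75 ± 0.25 (SE; interval 0.09 to 1.40; limma, adjusted p = 0.312) in the numbered libraries, a difference that 3 of the 200 sums exceeded. With all 9 libraries it was 2.29 (adjusted p = 0.682), which 42 of 222 sums exceeded. tGCI26h against Sham gave 0.04 ± 0.28 (SE; interval -0.68 to 0.76; adjusted p = 1.0) in the numbered libraries and 0.03 (adjusted p = 1.0) with all 9.

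miR-132-3p, the activity microRNA, had higher values in HPC0h than in tGCI26h, and tGCI26h and Sham overlapped. Its sum was 1014, 1044 and 905 tags in HPC0h a, b and c. In tGCI26h a and b it was 637 and 774 tags, and all its cells of tGCI26h u were blank. The Sham libraries a, b and u gave 827, 755 and 988 tags. HPC0h lay above tGCI26h in every library, and above both numbered Sham libraries, while Sham u fell within the range of HPC0h. Means were 988 ± 73.1 tags in HPC0h, 470.3 ± 413 tags in tGCI26h and 857 ± 119 tags in Sham (SD, n = 3 each). Over the numbered libraries they were 988 tags in HPC0h, 705.5 tags in tGCI26h and 791 tags in Sham.

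No miR-132-3p comparison passed after adjustment. In the numbered libraries HPC0h against Sham gave a log2 difference of 0.32 ± 0.11 (SE; interval 0.03 to 0.61; limma, adjusted p = 0.565). HPC0h against tGCI26h gave 0.49 ± 0.11 (SE; interval 0.20 to 0.78; adjusted p = 0.215), and tGCI26h against Sham gave -0.17 ± 0.12 (SE; interval -0.49 to 0.15; adjusted p = 0.664). The blank of tGCI26h u sets the size of the 9-library values, which were 3.64 for HPC0h against tGCI26h (adjusted p = 0.682) and -3.43 for tGCI26h against Sham (adjusted p = 0.578). HPC0h against Sham was 0.21 with all 9 libraries (adjusted p = 1.0).

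miR-21-5p, the injury microRNA, was lower in tGCI26h libraries than in the others, and in the numbered libraries HPC0h and Sham overlapped. Its sum was 3009, 2692 and 3255 tags in HPC0h a, b and c. In tGCI26h a, b and u it was 2392, 2251 and 565 tags. The Sham libraries a, b and u gave 3108, 3100 and 6295 tags. Every tGCI26h library lay below every HPC0h and every Sham library, and the u libraries held both the lowest and the highest value. Means were 2985 ± 282 tags in HPC0h, 1736 ± 1017 tags in tGCI26h and 4168 ± 1842 tags in Sham (SD, n = 3 each). Over the numbered libraries they were 2985 tags in HPC0h, 2322 tags in tGCI26h and 3104 tags in Sham.

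In the numbered libraries tGCI26h against Sham gave a log2 difference of -0.42 ± 0.10 for miR-21-5p (SE; interval -0.67 to -0.17; limma, adjusted p = 0.284), with 11 of the 200 sums lower still, against 97 of 222 with all 9 libraries. HPC0h against tGCI26h gave 0.36 ± 0.09 (SE; interval 0.13 to 0.59; adjusted p = 0.215), and HPC0h against Sham -0.06 ± 0.09 (SE; interval -0.29 to 0.17; adjusted p = 0.912). With all 9 libraries the 3 values were -1.44, 1.04 and -0.40, with adjusted p of 0.578, 0.682 and 1.0. Other scalings of the numbered libraries were not among the planned settings. Quantile normalisation of the numbered libraries gave -0.56 for tGCI26h against Sham (adjusted p = 0.0155) and 0.46 for HPC0h against tGCI26h (adjusted p = 0.0279), both past the threshold of 0.05, which 0.5% and 1.5% of the 200 sums passed in these comparisons. Scaling the same libraries by trimmed means gave -0.62 (adjusted p = 0.125) and 0.31 (adjusted p = 0.381), which did not pass.

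**Figure D1:**
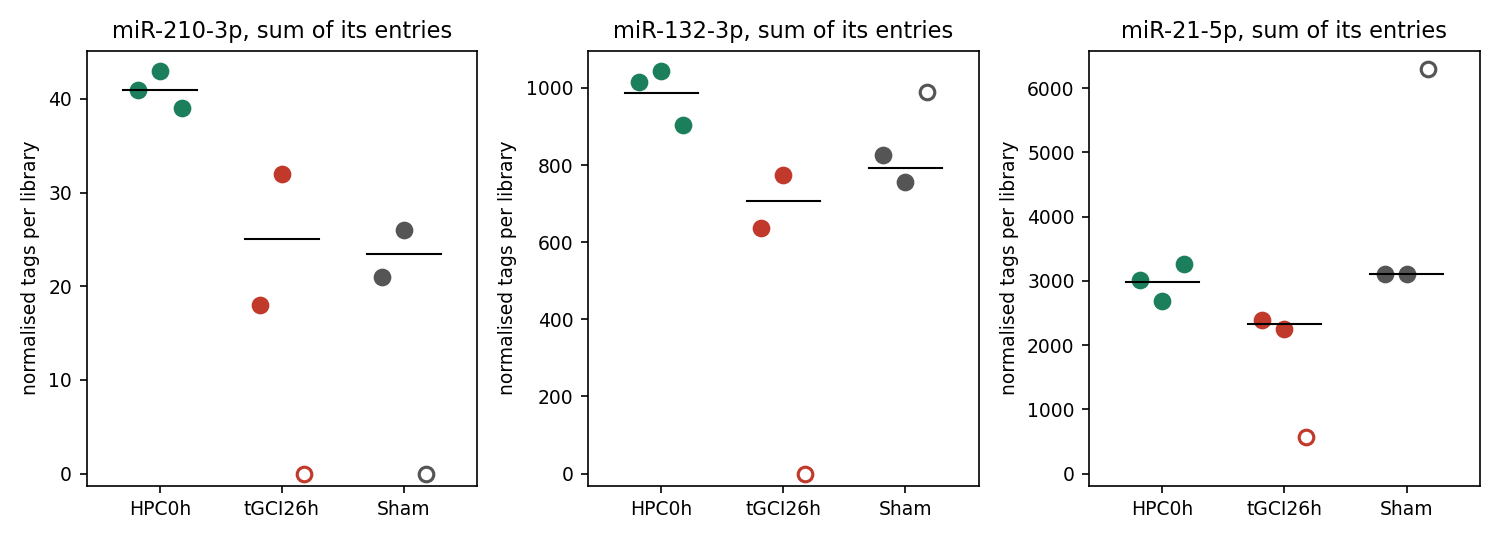
Normalised tags summed per microRNA (y axis) in each library of HPC0h, tGCI26h and Sham (x axis), 1 panel per microRNA, with filled points for numbered libraries, open points for the unnumbered ones (a blank drawn at 0) and a line at the mean of the numbered libraries. The 3 HPC0h libraries of miR-210-3p sit at 39 to 43 tags, above all others, and the tGCI26h libraries of miR-21-5p sit at 565 to 2392 tags, below all others.

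The groups can also be compared by whether their libraries overlap. With all 9 libraries, HPC0h lay wholly above Sham for 1 of the 3 microRNAs, miR-210-3p, against 4.5% of the 222 sums tested. HPC0h lay wholly above tGCI26h for all 3, against 9.46% of the 222. tGCI26h lay wholly below Sham for miR-21-5p alone of the 3, against 6.31% of the 222. Blanks count as 0 in these shares, and HPC0h has no u library. Of the 222 sums, 139 were at 0 in tGCI26h u and 35 in Sham u, against 19 to 22 in each numbered library. In the numbered libraries HPC0h lay above Sham for miR-210-3p and miR-132-3p, against 10% of 200 sums, above tGCI26h for all 3, against 19.5%, and tGCI26h below Sham for miR-21-5p alone, against 22.5%. HPC0h against Sham and tGCI26h against Sham share the Sham libraries, and HPC0h against tGCI26h shares libraries with both, so these counts are not separate pieces of evidence. An exact two-sided permutation test of each sum, 3 libraries against 3, cannot go below p = 0.1, and gave 0.1 in 5 of the 9 tests and 0.2 to 1.0 in the other 4.

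None of the 222 microRNA sums passed an adjusted p of 0.05 in limma with all 9 libraries, a background of 0.0% in each comparison, and none had an unadjusted p below 0.05. At the level of single entries 0 of 2824 passed, again 0.0%, and 0.744% had an unadjusted p below 0.05 for HPC0h against Sham, 1.38% for tGCI26h against Sham and 0.283% for HPC0h against tGCI26h. Among the numbered libraries 0.0% of the 200 sums passed after adjustment for HPC0h against Sham, 0.5% for tGCI26h against Sham and 0.5% for HPC0h against tGCI26h, and no member was among them. At an unadjusted p below 0.05 the shares were 7.5%, 11.0% and 14.5% in the same order. miR-210-3p had an unadjusted p of 0.0276 for HPC0h against Sham and 0.0329 for HPC0h against tGCI26h. miR-132-3p had 0.0382 and 0.0078 in those comparisons. miR-21-5p had 0.0075 for tGCI26h against Sham and 0.0097 for HPC0h against tGCI26h.

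**Figure D2:**
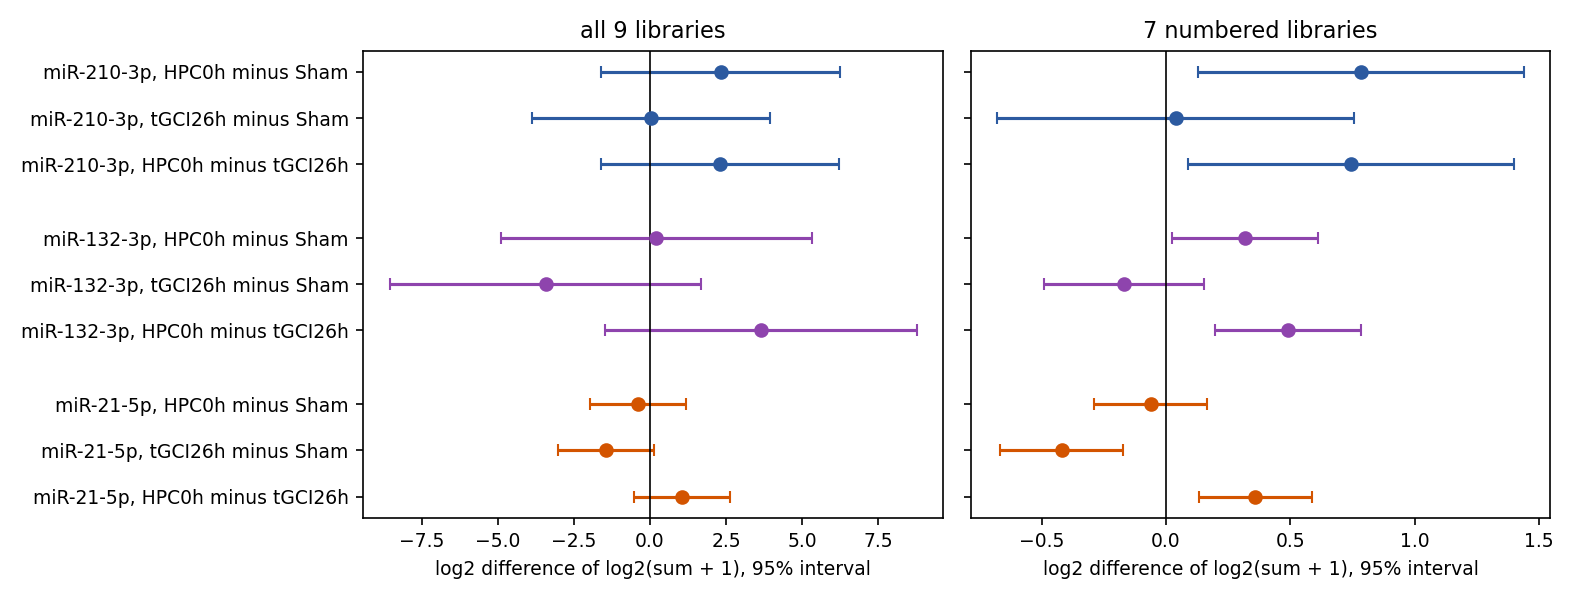
Log2 difference (limma, log2 of summed tags plus 1) with its 95% interval for each microRNA and comparison, with all 9 libraries and with the 7 numbered ones. With all 9 libraries every interval spans 0, and in the numbered libraries those of miR-210-3p and miR-132-3p for HPC0h against Sham, of miR-21-5p for tGCI26h against Sham and of all 3 for HPC0h against tGCI26h do not.

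**Figure D3:**
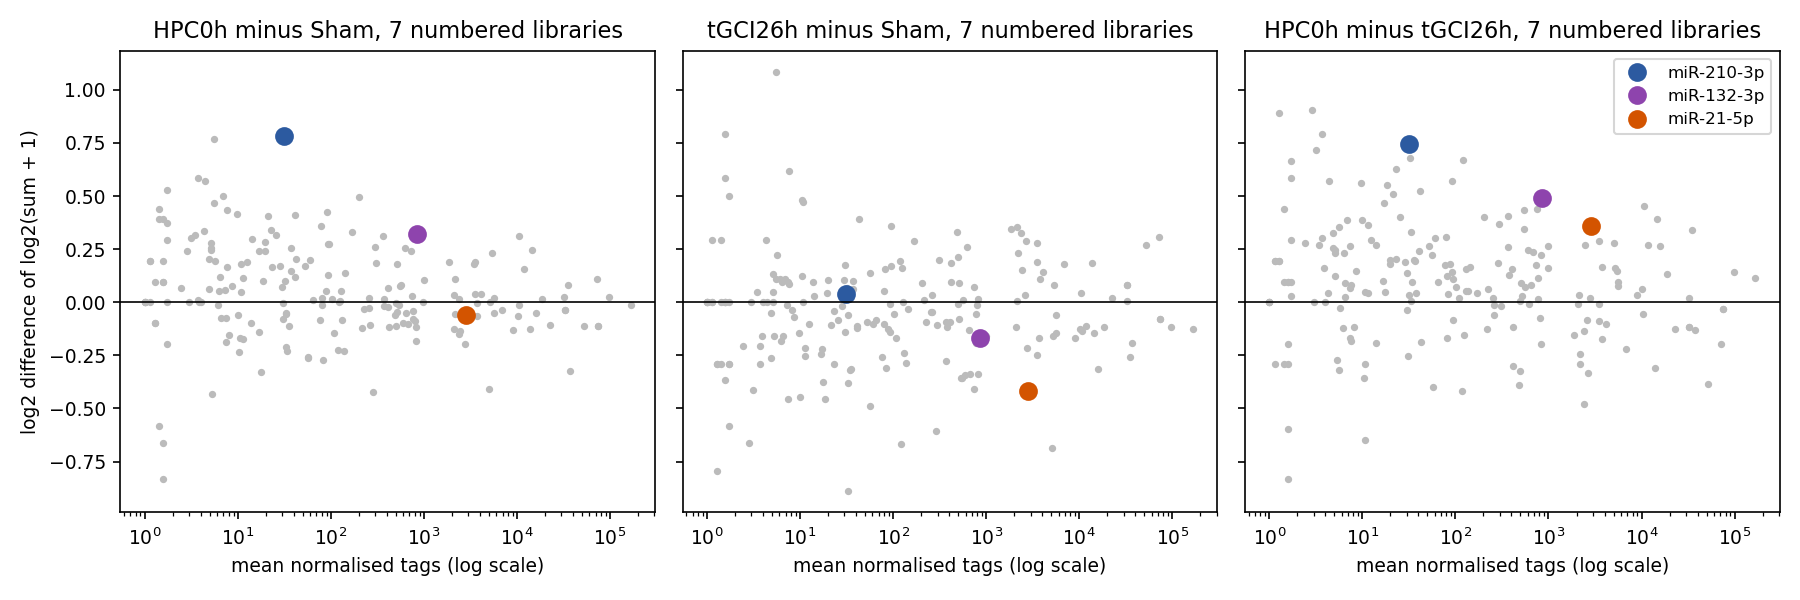
Log2 differences of the 200 microRNA sums tested in the 7 numbered libraries (grey) with the 3 members in colour, in the 3 comparisons. miR-210-3p has the highest value of all for HPC0h against Sham, at 0.78, while the median of all sums is 0.02 there.

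The median difference over all 200 sums in the numbered libraries was 0.02 for HPC0h against Sham, -0.04 for tGCI26h against Sham and 0.10 for HPC0h against tGCI26h on the log2 scale. The 9-library medians over 222 sums were -0.15, -1.22 and 0.74 in the same order, near the values of miR-21-5p in the comparisons with tGCI26h (-1.44 and 1.04). Scaling the numbered libraries by trimmed means or by the median of ratios moved the medians. They were then -0.20 for HPC0h against Sham and -0.23 for tGCI26h against Sham. In these libraries HPC0h against Sham was 0.55 for miR-210-3p, 0.08 for miR-132-3p and -0.30 for miR-21-5p under either scaling. With all 9 libraries the medians of the same comparisons were -0.01 and -1.21 under trimmed means. Under the median of ratios they were 0.07 and -1.06.

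The single forms behind the sums were few. In at least 1 library 11 of the 15 entries were above 0, the remaining 4 were blank or at 0 throughout, and 8 passed the filter of a mean of at least 1 tag over the 9 libraries. The sole entry above 0 in all 9 libraries was the lead form of miR-21-5p. All 8 entries tested had adjusted p of 0.722 to 1.0 in limma with all libraries, and 0.236 to 1.0 in the numbered ones, where 10 were tested. Of the 2608 entries tested there, 1.38% passed for HPC0h against Sham, 0.844% for tGCI26h against Sham and 0.46% for HPC0h against tGCI26h, none of them a member.

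For miR-210-3p the lead form of 21 bases, novel_2401_x2585, held 100% of the tags, and the entries of 20 bases (novel_770_x14696) and 19 bases (novel_1513_x5158) were above 0 in no library. For miR-132-3p the lead form, novel_9522_x369, had 1000, 1031 and 893 tags in HPC0h, 627 and 764 tags and a blank in tGCI26h, and 814, 742 and 905 tags in the Sham libraries. The form of 20 bases, novel_3898_x1293, had 14, 13 and 12 tags in HPC0h, 10 and 10 tags and a blank in tGCI26h, and 13, 13 and 67 tags in Sham. Its high value was that of Sham u. The form of 19 bases, novel_332_x50889, was above 0 in Sham u alone, with 16 tags, and that of 18 bases, novel_182_x113015, in no library.

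For miR-21-5p the lead form, novel_6112_x687, had 2981, 2663 and 3216 tags in HPC0h, 2366, 2228 and 565 tags in tGCI26h, and 3079, 3070 and 6034 tags in Sham. The form of 20 bases, novel_106_x244876, had 17, 18 and 24 tags in HPC0h, 15 and 14 tags and a blank in tGCI26h, and 18, 19 and 189 tags in Sham. Sham u again held the high value of the shorter form. The form of 19 bases had 4, 4 and 6 tags in HPC0h, 4 and 3 tags and a blank in tGCI26h, and 4, 4 and 36 tags in Sham. The form of 18 bases had 1 tag in every numbered library and a blank in both u libraries.

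Further miR-21-5p entries carried 1 base before mature base 1, and are shown because they shift the seed, whose usual letters are in capitals, by 1 position.
novel_7020_x563: cuAGCUUAUcagacugaugu
novel_11879_x274: guAGCUUAUcagacugaug
novel_12345_x260: cuAGCUUAUcagacugaug
The hairpin has a g at that place, as has the second of these entries, while the others have a c that is not in the hairpin. novel_7020_x563 had the same value as the form of 19 bases (novel_38_x844318) in every library, and the other 2 had the same value as the form of 18 bases (novel_78_x381050) in every library. A sum may therefore count the same tags more than once. With identical entries counted once the sums of miR-21-5p were 3003, 2686 and 3247 tags in HPC0h, 2386, 2246 and 565 tags in tGCI26h, and 3102, 3094 and 6259 tags in Sham. The entry novel_7459_x517, of 20 bases with an undetermined first base, was above 0 in no library.

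The share of tags in the lead form was at least 98.3% in every numbered library for miR-132-3p and miR-21-5p. For miR-132-3p it was 98.6, 98.8 and 98.7% in HPC0h, 98.4 and 98.7% in tGCI26h a and b, and 98.4, 98.3 and 91.6% in Sham a, b and u. For miR-21-5p, counting entries that end at mature base 21, it was 99.1, 98.9 and 98.8% in HPC0h, 98.9, 99.0 and 100% in tGCI26h, and 99.1, 99.0 and 95.9% in Sham. Exact permutation tests, 9 in number, were run on these shares and on the miR-21-5p share with a base before mature base 1. The lowest p was 0.1, with adjusted p of 0.9 to 1.0. For miR-132-3p the tests with tGCI26h set 2 libraries against 3, because tGCI26h u had no tags, and cannot go as low as 0.1. Forms with a base before mature base 1 held 0.193 to 0.251% of the miR-21-5p tags in the numbered libraries and 0.572% in Sham u.

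**Figure D4:**
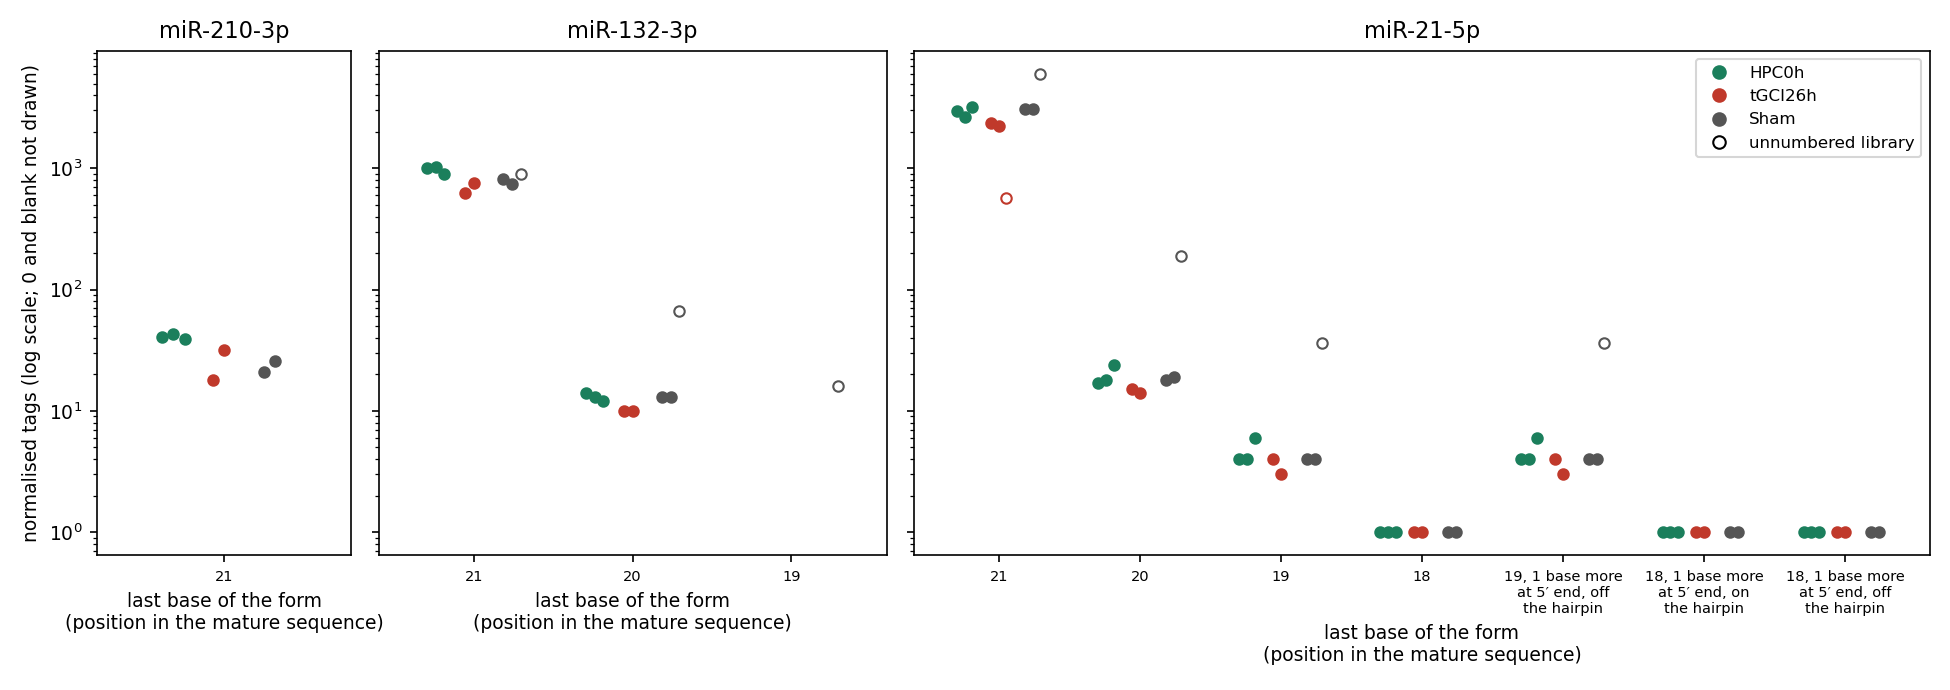
Normalised tags (log axis; 0 and blank not drawn) of each form, placed by the last mature base it contains, for the 3 microRNAs, with colours for the groups and open points for the unnumbered libraries. In numbered libraries the form ending at base 21 leads by more than an order of magnitude over the next in miR-132-3p and miR-21-5p. It is the only form drawn for miR-210-3p. Sham u lies above the other libraries in the forms of 20 and 19 bases of miR-132-3p and miR-21-5p.

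miR-132 shares its cluster on chromosome 10 with miR-212, and the other arms of the cluster give a reading the membership rule did not use. The sequences are shown because miR-212-3p has the seed of miR-132-3p and miR-132-5p is the opposite arm of the same hairpin.
miR-212-3p: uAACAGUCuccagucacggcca
miR-132-5p: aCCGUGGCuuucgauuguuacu
miR-212-3p lies at chr10:60521811-60521832 and miR-132-5p at chr10:60522055-60522076, both on the plus strand of GRCr8. miR-212-3p had 102, 112 and 114 tags in HPC0h, 59, 91 and 204 tags in tGCI26h, and 95, 69 and 390 tags in Sham. In the numbered libraries HPC0h lay above both other groups, and in the u libraries both values were higher than any numbered one. The log2 difference of miR-212-3p in the numbered libraries was 0.43 for HPC0h against Sham (limma, adjusted p = 0.84), -0.14 for tGCI26h against Sham (adjusted p = 0.91) and 0.57 for HPC0h against tGCI26h (adjusted p = 0.33). Including the u libraries they were -0.32 (adjusted p = 1.0), -0.41 (adjusted p = 0.919) and 0.08 (adjusted p = 1.0) in the same order, so that HPC0h against Sham turned its direction.

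miR-132-5p had 74, 92 and 152 tags in HPC0h, 114 and 81 tags and a blank in tGCI26h, and 101 and 99 tags and a blank in Sham. The numbered libraries of its 3 groups overlapped. miR-212-5p had 24, 18 and 23 tags in HPC0h, 21 and 17 tags and a blank in tGCI26h, and 18, 17 and 34 tags in Sham. miR-132-3p exceeded its opposite arm by 5.59 to 13.7 times in the numbered libraries and miR-212-3p by 7.94 to 10.9 times, against 2.53 times in Sham u. In tGCI26h u miR-132-3p was blank beside 204 tags of miR-212-3p. No entry matched miR-210-5p or miR-21-3p, the opposite arms of the other members.

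**Figure D5:**
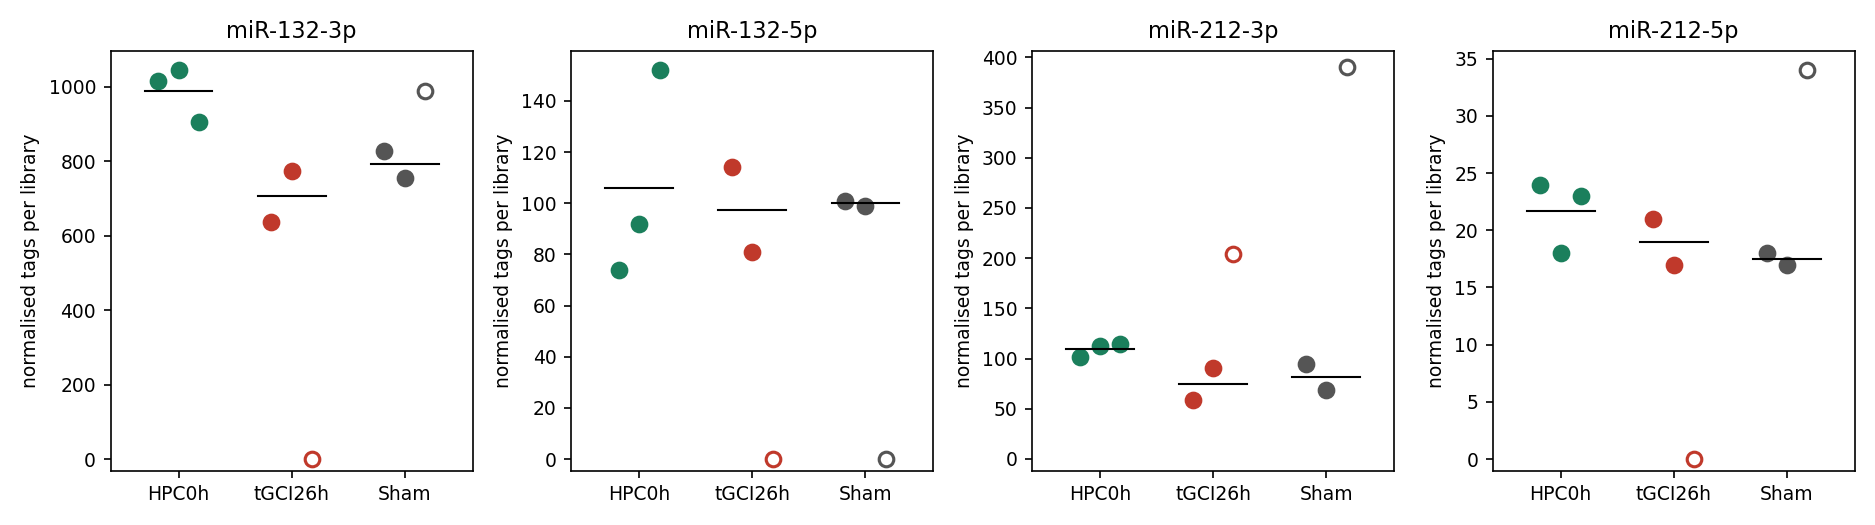
Normalised tags of both arms of miR-132 and miR-212 in each library of HPC0h, tGCI26h and Sham, with open points for the unnumbered libraries and a line at the mean of the numbered ones. Numbered HPC0h libraries sit above the other numbered libraries in the 3p arms, at 905 to 1044 tags for miR-132-3p and 102 to 114 tags for miR-212-3p, while the groups overlap for miR-132-5p.

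Further microRNAs of each theme were taken from lists of 13 hypoxia, 14 activity and 15 injury microRNAs, of which 12, 12 and 13 matched an entry. With all 9 libraries none of the 10 tested microRNA sums of any list passed after adjustment. The 9 hypoxia sums tested in the numbered libraries had a median log2 difference of -0.05 for HPC0h against Sham, 0.00 for tGCI26h against Sham and 0.02 for HPC0h against tGCI26h. For the 11 activity sums it was 0.15, 0.00 and 0.17 in the same order, with 8 of 11 above 0 for HPC0h against Sham. For the 9 injury sums it was 0.00, -0.16 and 0.25, with 2 of 9 above 0 for tGCI26h against Sham. Over all 200 sums the medians were 0.02, -0.04 and 0.10, with 111, 76 and 136 above 0. The medians differed from these when all 9 libraries were used. They were -0.08, -0.39 and 0.08 for the 10 hypoxia sums, -0.15, -0.12 and 0.18 for the 10 activity sums and -0.90, -0.45 and 0.03 for the 10 injury sums. For HPC0h against Sham 2 of 10, 5 of 10 and 0 of 10 of these were then above 0, against 92 of all 222 sums.

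In the hypoxia list miR-322-5p, the rat counterpart of human miR-424, alone passed in the numbered libraries. It had 2, 2 and 2 tags in HPC0h, 1 and 1 tags and a blank in tGCI26h, and 2, 2 and 74 tags in Sham. Its call rests on values of 1 and 2 tags that were identical within each group. The most abundant sums of the hypoxia list were those of miR-26a-5p and of miR-27a-3p with miR-27b-3p. miR-26a-5p had 30730 to 35441 tags in HPC0h, 6798 to 32301 tags in tGCI26h and 31037 to 62239 tags in Sham, and the lowest and the highest of these values came from the u libraries. The miR-27 sum, also in the injury list, had 14942 to 17947 tags in HPC0h. It had 14487 and 12921 tags in tGCI26h a and b, and 18414 and 15758 tags in Sham a and b. In the u libraries it had 23317 tags in tGCI26h and 15593 tags in Sham. Among the numbered libraries tGCI26h lay below both other groups, with a log2 difference from Sham of -0.32 (limma, adjusted p = 0.423).

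In the activity list miR-125b-5p was the most abundant after miR-26a-5p. It had 13140 to 19576 tags in HPC0h, 5582 to 13983 tags in tGCI26h and 11580 to 16048 tags in Sham, so the groups overlapped. The injury list held miR-146a-5p and miR-146b-5p, known as feedback inhibitors of innate immune signalling. Their sum had 2255 to 2466 tags in HPC0h. It had 2567 and 2581 tags in tGCI26h a and b, and 2398 and 2241 tags in Sham a and b. In the u libraries it had 1740 tags in tGCI26h and 2915 tags in Sham. Among the numbered libraries tGCI26h lay above both other groups, with a log2 difference from Sham of 0.15 (limma, adjusted p = 0.423). miR-155-5p, induced in activated myeloid cells, was at 0 in every library.

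Across the 9 libraries the microRNAs whose centred log2 pattern was most like that of miR-210-3p were miR-409a-5p, miR-423-5p and miR-195-3p, with root mean square differences of 0.43 to 0.46 over 165 sums with a mean of at least 10 over the 9 libraries, whose median difference was 2.41. For miR-132-3p they were miR-434-5p, miR-25-3p and miR-382-5p (0.27 to 0.33, median 2.42), and for miR-21-5p miR-26a-5p, miR-9a-5p and miR-30a-5p (0.18 to 0.35, median 1.70). These likenesses hold the pattern of blanks and high values in the u libraries. In the 7 numbered libraries the nearest were miR-136-3p, miR-350 and miR-212-3p for miR-210-3p (0.17 to 0.26, median 0.44), miR-411-5p, miR-100-5p and miR-92b-3p for miR-132-3p (0.10 to 0.13, median 0.27), and the miR-27 sum, miR-192-5p and miR-451-5p for miR-21-5p (0.08 to 0.12, median 0.22). miR-136-3p had 2 to 5 tags in the numbered libraries and reached the mean of 10 through tGCI26h u (2891 tags) and Sham u (749 tags). The points share libraries and normalisation.

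The tissue label was checked against cell type markers. Of 5 neuronal markers, miR-128-3p, miR-127-3p and miR-138-5p were matched by name and together had 129543 to 152025 tags in HPC0h, 121342 to 123143 tags in tGCI26h a and b, and 131567 to 140489 tags in Sham a and b. The oligodendrocyte list, nearly all miR-219a-2-3p in numbered libraries, had 4376 to 5256 tags in HPC0h, 3591 to 4401 tags in tGCI26h a and b, and 6168 to 6616 tags in Sham a and b. The unnumbered libraries had 62874 tags of the neuronal sum in tGCI26h and 68972 tags in Sham, and 1265 and 2557 tags of the oligodendrocyte sum. Among the numbered libraries the neuronal sum of tGCI26h lay below both other groups, while that of oligodendrocytes lay below Sham and overlapped HPC0h. Nearly all of the neuronal sum was miR-128-3p and miR-127-3p. miR-138-5p had its lowest value of the numbered libraries in tGCI26h a and its highest in tGCI26h b. It had 738 to 831 tags in HPC0h, 508 and 947 tags in tGCI26h a and b, and 679 and 643 tags in Sham a and b. The part of these sums in the results for the 3 microRNAs was not tested. Of the white blood cell markers, miR-155-5p was at 0 in all libraries, miR-223-3p had at most 1 tag and miR-142-5p was above 0 in Sham u alone, with 14 tags. Red blood cell miR-451-5p had 48 to 61 tags in HPC0h, 46 and 48 tags in tGCI26h a and b, and 61 and 72 tags in Sham a and b, but 1626 tags in tGCI26h u and 864 tags in Sham u. Endothelial miR-126a-3p had 7959 to 9532 tags in HPC0h. It had 9030 and 8237 tags in tGCI26h a and b, 9303 and 10081 tags in Sham a and b, 3839 tags in tGCI26h u and 3984 tags in Sham u. Smooth muscle miR-143-3p had 18141 to 20123 tags in HPC0h. It had 17054 and 17860 tags in tGCI26h a and b, 19355 and 18452 tags in Sham a and b, 18591 tags in tGCI26h u and 20838 tags in Sham u. In the numbered libraries tGCI26h lay below Sham for both of these, while miR-126a-5p and miR-145-5p of the same lists overlapped Sham. Liver miR-122-5p had at most 1 tag. Of the muscle markers, miR-133a-3p had none and miR-206-3p at most 1 tag. The sum of miR-1-3p with miR-1b had 4 to 13 tags in HPC0h, 9 and 7 tags in tGCI26h a and b, and 11 and 6 tags in Sham a and b. It had 20 tags in Sham u and a blank in tGCI26h u.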

How the data were processed

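Small RNA libraries from rat CA1 were sequenced, 3 each for HPC0h, tGCI26h and Sham. The deposited values are normalised tag counts that the authors rounded to whole numbers, handled here as a score and not as raw counts; how they were normalised is not given in the sources used here. Novoalign 3.02.12 and cutadapt 1.9.3 were used, per the submitters' processing notes. 11 lines of the table were empty and not used.

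Entries were matched to mature rat microRNAs of RefSeq (GRCr8) by exact runs of 16 bases and summed per microRNA, with sums of identical entry sets merged. Differences were tested with limma 3.58.1 in R 4.3.3 (intensity trend, log2 of value plus 1, mean of at least 1, all libraries in 1 fit, Benjamini-Hochberg over all features, threshold 0.05), so that differences of low entries are understated. The scripts were tested on simulated data, where the fit with all 9 libraries missed most changes put in, so its lack of calls does not show a lack of change. The fit of entries in the numbered libraries also made false calls. That of microRNA sums in the numbered libraries found 15 of 20 changes of 2-fold and 20 of 20 of 8-fold, with 1 false call. Members and lists were chosen with earlier results of these data known. Named were the members, their lead forms and form classes, list microRNAs that passed, the 2 most abundant of each list and the 3 most alike patterns. miR-155-5p was named as a list member at 0, and single cell type markers were named after their values were seen. Alternatives changed the run length, pseudocount, filter, scaling, handling of blanks and libraries.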

Additional observations from a re-analysis of the deposited data

How the results depend on the processing

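Of 36 settings 23 were planned and 13 were not, among them every other scaling of the numbered libraries. Over the 36 settings the 9 member differences gave 324 alternative values: 313 kept their direction and their side of the threshold, 9 changed sign and 2 passed the threshold. The direction held throughout for 7 of the 9; the exceptions were tGCI26h against Sham for miR-210-3p and HPC0h against Sham for miR-21-5p. The causes of these changes were not tested. For miR-210-3p, tGCI26h against Sham was -0.13 with trimmed-mean scaling, and -0.15 with trimmed means or the median of ratios in the numbered libraries. For miR-21-5p, HPC0h against Sham was 0.012 in the numbered libraries without HPC0h b, and quantile scaling of the numbered libraries gave -0.56 for tGCI26h against Sham and 0.46 for HPC0h against tGCI26h, both past the threshold.

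Entries called, 0 with all 9 libraries, numbered 8 for HPC0h against Sham when only those groups were fitted, 36 in the numbered libraries, 3 with blanks as missing, and 21, 22 and 17 in the numbered libraries with trimmed means, median of ratios and quantiles, and 7 with a mean of at least 10. For tGCI26h against Sham they numbered 22 in the numbered libraries, 3 with blanks as missing, 10, 9 and 7 with those scalings and 9 with the higher mean. For HPC0h against tGCI26h they numbered 2 in the fit of that pair, 12 in the numbered libraries, 1 with blanks as missing, 2 with quantiles and 1 with the higher mean. MicroRNA sums called numbered 1 for tGCI26h against Sham in the numbered libraries, also with each scaling, and for HPC0h against tGCI26h 1 in the numbered libraries, 3 with quantiles and 1 as a share of microRNA matches.

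Leaving out 1 library at a time gave, with all 9 and then with the numbered libraries, 0.78 to 3.16 and 0.64 to 0.93 for miR-210-3p in HPC0h against Sham, -1.51 to 1.57 and -0.36 to 0.44 in tGCI26h against Sham, and 0.75 to 3.27 and 0.35 to 1.14 in HPC0h against tGCI26h. For miR-132-3p it gave 0.12 to 0.32 and 0.25 to 0.38, -5.08 to -0.28 and -0.31 to -0.03, and 0.49 to 5.29 and 0.35 to 0.63 in the same order. For miR-21-5p it gave -0.57 to -0.06 and -0.13 to 0.01, -1.80 to -0.76 and -0.46 to -0.38, and 0.36 to 1.40 and 0.29 to 0.43. No entry or sum was called in the 9-library leave-outs (0 to 0). In the numbered ones 0 to 2 sums were called for HPC0h against Sham, 1 to 4 for tGCI26h against Sham and 1 to 4 for HPC0h against tGCI26h. Where a group then held 1 library, it was assumed to vary like the others. No paired analysis was possible because nothing ties the numbers in the column headings to replicate numbers or across groups. With normalised and rounded values the depth is unknown, which limits what can be said of forms of a few tags.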

Other observations

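Names of the 5282 entries named in the manner of novel_6112_x687 carry a running number and a second number whose meaning is not given in the sources used here. Across entries, which are not independent, Spearman's rho of the second number was -0.999999 with the running number and 0.0612 with the mean value. Among the miR-21-5p forms it was 844318 for the form of 19 bases, which had 3 to 6 tags in the numbered libraries, 381050 for the form of 18 bases, which had 1 tag, 244876 for the form of 20 bases, and 687 for the lead form, which had 2228 to 3216 tags there. miR-9a-5p, the reference table's name for the neuronal marker miR-9-5p, was matched after values were seen and had 167782 to 173922 tags in HPC0h, 31712 to 159222 tags in tGCI26h and 168437 to 227006 tags in Sham.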
